A study of Mus musculus with 8 samples.

Results

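The natriuretic peptide system was described in NCMs through 8 genes, the peptide genes Nppa, Nppb and Nppc, the receptor genes Npr1, Npr2 and Npr3, and the protease genes Corin and Furin. They were chosen by symbol, through the Entrez identifier of each row. All 8 were found among the 27179 genes of the deposited count table, and 7 of them were among the 14966 genes with enough counts to be tested, the exception being Nppc. NCMs are cardiomyocytes isolated from the hearts of newborn mice, here male C57Bl/6 J mice on postnatal day 0. The dams were assigned to filtered air (FA) or diesel exhaust (DE) after a vaginal plug was seen, and exposures ran through most of gestation. DE was not continuous but was given for part of the day, on weekdays only. The comparison asks what exposure in utero does to transcription in the heart cells of the offspring. There were 4 FA libraries (replicates 2, 3, 4 and 6) and 4 DE libraries (replicates 1, 3, 5 and 7), each from the cells of 1 heart that had been trimmed of vessels and atrial tissue and from which fibroblasts were left to attach to a plate for 1 h. Litters are not given in the labels, so the spread between libraries may be partly that between litters. The methods give n = 3 for RNA-seq without naming the hearts, and all 8 libraries were used here. In the sample names, DE replicates 3 and 5 carry the number 12 and the other 6 libraries the number 11, with no meaning stated. Libraries held between 17943024 and 39839737 counts.

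The natriuretic peptides ANP and BNP are hormones that heart muscle makes when it is stretched, and they lower blood pressure and blood volume. Nppa encodes ANP and Nppb encodes BNP, and both are made as precursors that the proteases corin and furin cut to the active hormone. The receptor encoded by Npr1 binds ANP and BNP, the receptor encoded by Npr2 binds CNP (the product of Nppc), and both are guanylate cyclases that make the messenger cGMP, while the receptor encoded by Npr3 takes the peptides up and clears them. In the mouse, Nppa is transcribed in the atria and the fetal ventricle and is reduced in the ventricle after birth, and both Nppa and Nppb are widely read as markers of cardiac hypertrophy.

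Nppa (Entrez gene 230899) and Nppb (Entrez gene 18158) lie on the same strand of chromosome 4, at chr4:148000722-148002074 and chr4:147985786-147987205 of GRCm38.p6 (mm10), with 13516 bases between them. The stretch before each start site is shown because the pair differed in opposite directions in the data below and because motifs of cardiac transcription factors are known from these promoters. For Nppa it is the 250 bases before the start (chr4:148000472-148000721, + strand), and for Nppb a stretch of 27 bases (chr4:147985795-147985821, + strand), both 5′ to 3′ from the RefSeq promoter table on GRCm38.p6. Capitals mark matches to the motifs searched.
Nppa: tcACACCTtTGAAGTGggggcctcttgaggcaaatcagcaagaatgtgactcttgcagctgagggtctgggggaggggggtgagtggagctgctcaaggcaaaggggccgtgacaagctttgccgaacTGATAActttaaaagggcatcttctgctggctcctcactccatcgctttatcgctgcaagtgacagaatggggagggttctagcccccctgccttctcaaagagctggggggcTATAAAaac
Nppb: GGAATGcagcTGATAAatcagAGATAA
Motifs were searched on both strands of the 250 bases before each start. The GATA motif was AGATAA with T allowed as its opening letter and G as its closing letter. The others were Nkx2-5 (TNAAGTG), T-box (AGGTGT), TEAD (CATTCC), AP-1 (TGANTCA), the TATA box (TATAAA) and the SRF CArG box. In Nppa, GATA matched as TGATAA from 122 to 117 bases before the start, Nkx2-5 as TGAAGTG from 241 to 235 bases before it, T-box as ACACCT on the opposite strand from 248 to 243 bases before it, and TATAAA from 9 to 4 bases before it. In Nppb, GATA matched at TGATAA, 95 to 90 bases before the start, and at AGATAA, 84 to 79 bases before it. TEAD matched on the opposite strand as GGAATG, 105 to 100 bases before the start, and TATAAA lay 31 to 26 bases before it. The last 114 bases of the Nppb window lie inside the longest gene model, and all of the Nppb matches are among them. The 27 bases printed for Nppb, also among them, run from its TEAD match to AGATAA and leave out its TATA match. Both windows thus hold GATA and TATA matches, the Nppa window alone of the pair Nkx2-5 and T-box, and the Nppb window alone TEAD. Such matches are common. Of 32851 mouse promoters of the same length, 26.5% held a GATA match, 12.4% TATAAA, 12.6% TEAD, 11.8% T-box, 10.1% Nkx2-5, 6.75% AP-1 and 1.47% a CArG box. Among the other members, Nppc had a TATA match, Npr2 a T-box match, Furin an Nkx2-5 and a TATA match at 1 of its 2 start sites, and Npr1, Npr3 and Corin none of these motifs in the window.

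Nppa was on average lower and Nppb on average higher in DE NCMs, neither past the threshold, and the receptors and Furin differed little. Calls required an adjusted p of at most 0.05 (edgeR quasi-likelihood test with Benjamini-Hochberg adjustment over all tested genes) together with a difference of at least 25%. By this rule 0 of the 7 tested members were called, where 5.80% of all tested genes were (2.22% lower and 3.58% higher in DE). At an unadjusted p under 0.05, 3 members differed (Nppa, Nppb and Corin), against 25.6% of all tested genes. The CPM values (counts scaled to library size with TMM factors) of FA and DE overlapped for all 7, where 14.7% of tested genes had no overlap. DESeq2 called 1 member, Nppa, and 10.4% of its tested genes. The edgeR likelihood ratio test also called 1, again Nppa, with 10.7% of all genes, and limma-voom called 0 with 5.75%.

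**Figure D1:**
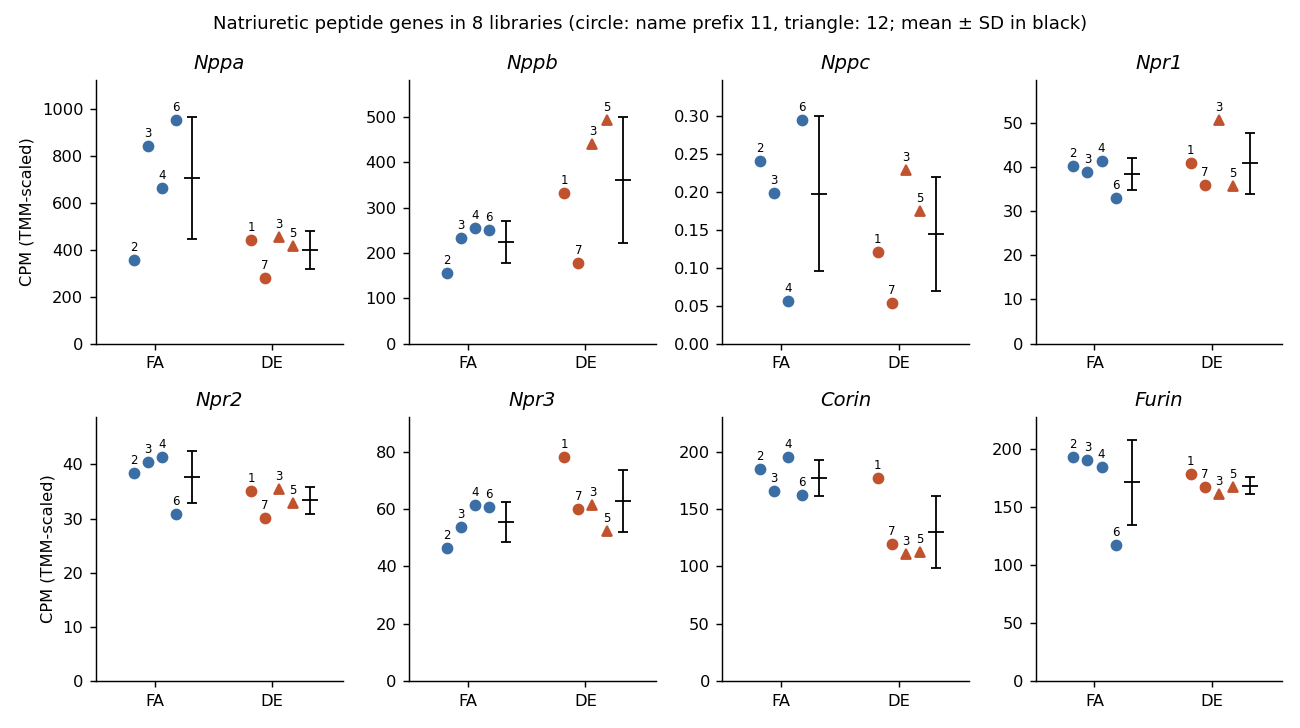
CPM of the 8 genes in each library, with FA in blue and DE in orange, the replicate number above each point, and the group mean ± SD (n = 4) in black. Circles are libraries with the number 11 in their name and triangles those with 12, and each axis starts at 0. Nppa runs from 357 to 953 CPM in FA and from 279 to 453 in DE, Nppb from 156 to 255 in FA and from 178 to 493 in DE, and the ranges of the groups overlap in every panel.

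Nppa, the ANP gene, was at 357, 841, 664 and 953 CPM in FA replicates 2, 3, 4 and 6, and at 441, 453, 417 and 279 CPM in DE replicates 1, 3, 5 and 7. FA replicates 3, 4 and 6 were above every DE library, and FA replicate 2 lay among the DE libraries. The group means were 704 ± 260 CPM (SD, n = 4) in FA against 398 ± 80.4 CPM (SD, n = 4) in DE, a fold of 0.565. On the log2 scale the difference was -0.82 (SE 0.26, 95% interval -1.39 to -0.26), with adjusted p = 0.0821 from the edgeR quasi-likelihood test. Without FA replicate 2 the gene was called, at -1.04 and adjusted p = 0.0191, and it was also called with DESeq2 (adjusted p = 0.0181) and the edgeR likelihood ratio test (adjusted p = 0.025). Within the libraries of prefix 11 the difference was -0.97 (edgeR adjusted p = 0.17). Exons of Nppa overlap 532 bases of the antisense gene Gm13054, and since the strand setting of the counting is not stated, reads of the pair cannot be told apart. In these bulk samples fewer cells of a type and less RNA per cell cannot be told apart either.

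Nppb, the BNP gene, was at 156, 232, 255 and 251 CPM in FA replicates 2, 3, 4 and 6, and at 332, 440, 493 and 178 CPM in DE replicates 1, 3, 5 and 7. DE replicates 1, 3 and 5 were above every FA library, and DE replicate 7 was below FA replicates 3, 4 and 6. The means were 224 ± 46.2 CPM (SD, n = 4) in FA against 361 ± 139 CPM (SD, n = 4) in DE, a fold of 1.61. The log2 difference was 0.69 (SE 0.27, 95% interval 0.10 to 1.28), with adjusted p = 0.139 from edgeR. Both DE libraries with the number 12 in their name held the highest values. With prefix 11 alone, 4 FA and 2 DE libraries, the log2 difference shrank to 0.19 (edgeR adjusted p = 0.771). Without DE replicate 7 it was 0.91 and the gene was called (edgeR adjusted p = 0.0307). No other annotated gene overlaps the exons of Nppb.

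Nppc, the CNP gene (chr1:86666293-86670573), was close to undetected. It had 9, 4, 1 and 6 counts in FA replicates 2, 3, 4 and 6 and 4, 8, 7 and 1 in DE replicates 1, 3, 5 and 7, 40 counts in all. This is too few to pass the filter on low counts, and when it was tested without that filter the log2 difference was -0.39 (edgeR adjusted p = 0.694).

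Set against each other inside a library, Nppa and Nppb separated the groups. The log2 ratio of Nppa to Nppb counts, which no scaling between libraries touches, was 1.20, 1.86, 1.38 and 1.92 in FA replicates 2, 3, 4 and 6. In DE replicates 1, 3, 5 and 7 it was 0.41, 0.04, -0.24 and 0.65. Every FA library thus had a higher ratio than every DE library. The means were 1.59 ± 0.36 in FA and 0.22 ± 0.39 in DE (SD, n = 4 each), a difference of -1.37. Leaving out each library in turn gave differences from -1.52 to -1.22, and the libraries of prefix 11 alone gave -1.06. Per kilobase of exons, an FA library held on average 2.78 Nppa for each Nppb (2.07 to 3.43) and a DE library 1.08 (0.764 to 1.42). When the same ratio was formed with each of 13361 other genes, the groups did not overlap for 12.3% of genes set against Nppa and for 2.99% set against Nppb. FA replicate 2 and DE replicate 7, the libraries that broke the group difference of the single genes, were the lowest of their group in both Nppa and Nppb, and their ratios lay with those of their group. No p is given for this ratio, since the pair was chosen with earlier results of these data known.

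**Figure D2:**
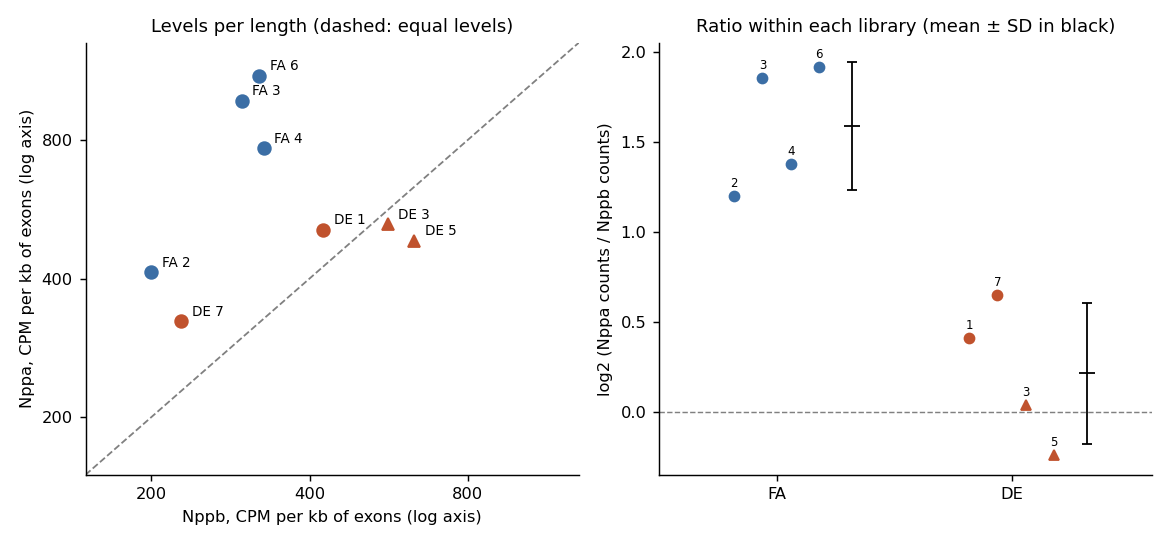
Left, Nppa against Nppb in CPM per kilobase of exons on log axes, one point per library, with a dashed line at equal levels. Right, the log2 ratio of Nppa to Nppb counts in each library with the group mean ± SD (n = 4) in black. FA libraries (blue) lie between 1.20 and 1.92 and DE libraries (orange, triangles for the number 12) between -0.24 and 0.65, and DE replicates 3 and 5 fall below the line of equal levels per kilobase.

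The receptor genes were each at a similar level in FA and DE NCMs, and none of the 3 was called. Npr1, the guanylate cyclase receptor of ANP and BNP (chr3:90450591-90465928), was at 40.2, 38.9, 41.5 and 33.1 CPM in FA replicates 2, 3, 4 and 6 and at 41.0, 50.7, 35.8 and 36.0 CPM in DE replicates 1, 3, 5 and 7. DE replicate 3 was the highest library and the others intermingled. The log2 difference was 0.09 (SE 0.13, 95% interval -0.19 to 0.37, edgeR adjusted p = 0.691), and without DE replicate 3 it was -0.03. Npr2, the CNP receptor (chr4:43629015-43651437), was at 37.7 ± 4.77 CPM (SD, n = 4) in FA against 33.4 ± 2.44 CPM (SD, n = 4) in DE, with libraries from 30.8 to 41.3 in FA and from 30.1 to 35.5 in DE. Its log2 difference was -0.18 (SE 0.11, 95% interval -0.42 to 0.07, edgeR adjusted p = 0.349). FA replicates 2, 3 and 4 were above every DE library and FA replicate 6 was not. Npr3, the clearance receptor (chr15:11839896-11907837), was at 55.6 ± 7.09 CPM (SD, n = 4) in FA against 62.9 ± 10.9 CPM (SD, n = 4) in DE, and DE replicate 1, at 78.1 CPM, was the highest library. Its log2 difference was 0.18 (SE 0.14, 95% interval -0.12 to 0.48, edgeR adjusted p = 0.426), and without DE replicate 1 it was 0.06.

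Within a library, the log2 ratio of Npr3 to Npr1 counts, not corrected for length, was 0.53 ± 0.28 in FA and 0.62 ± 0.28 in DE (SD, n = 4 each). The libraries ran from 0.21 to 0.88 in FA and from 0.27 to 0.93 in DE, so the groups overlapped almost fully. Per kilobase of exons there were on average 0.82 Npr3 for each Npr1 in FA and 0.875 in DE. The intervals of all 3 receptor genes leave room for differences of up to 0.48 on the log2 scale in size, so equal levels were not shown.

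Of the proteases, Corin had the larger difference between DE and FA, lower in DE on average, and neither was called. Corin, the membrane protease that cuts the ANP precursor on cardiomyocytes (chr5:72299948-72504540), was at 185, 166, 195 and 162 CPM in FA replicates 2, 3, 4 and 6. In DE replicates 1, 3, 5 and 7 it was at 177, 111, 112 and 119 CPM. DE replicates 3, 5 and 7 lay below every FA library, and DE replicate 1 lay within the FA range. The means were 177 ± 15.8 CPM (SD, n = 4) in FA against 130 ± 31.4 CPM (SD, n = 4) in DE, a log2 difference of -0.45 (SE 0.15, 95% interval -0.78 to -0.12) with adjusted p = 0.0991 from edgeR. Without DE replicate 1 it was called, at -0.63 (edgeR adjusted p = 0.0111), and with prefix 11 alone, where DE replicate 1 is 1 of the 2 DE libraries, it was -0.26 (edgeR adjusted p = 0.471).

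Furin, the protease of the secretory pathway that cuts the BNP precursor among many others (chr7:80389194-80405441), was at 193, 191, 185 and 117 CPM in FA replicates 2, 3, 4 and 6 and at 179, 161, 167 and 167 CPM in DE replicates 1, 3, 5 and 7. FA replicate 6 was the lowest of all libraries and the other 3 FA libraries were above the DE ones. The log2 difference was -0.03 (SE 0.15, 95% interval -0.35 to 0.29, edgeR adjusted p = 0.926), and without FA replicate 6 it was -0.17. The log2 ratio of Corin counts to Nppa counts was -1.90 ± 0.72 in FA and -1.62 ± 0.40 in DE (SD, n = 4 each), with the groups overlapping, and per kilobase there were 0.0513 Corin for each Nppa in FA and 0.0584 in DE. Like Nppa, the genes Npr1, Npr2, Npr3, Corin and Furin each overlap a gene of the opposite strand, by 118 to 559 exon bases.

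**Figure D3:**
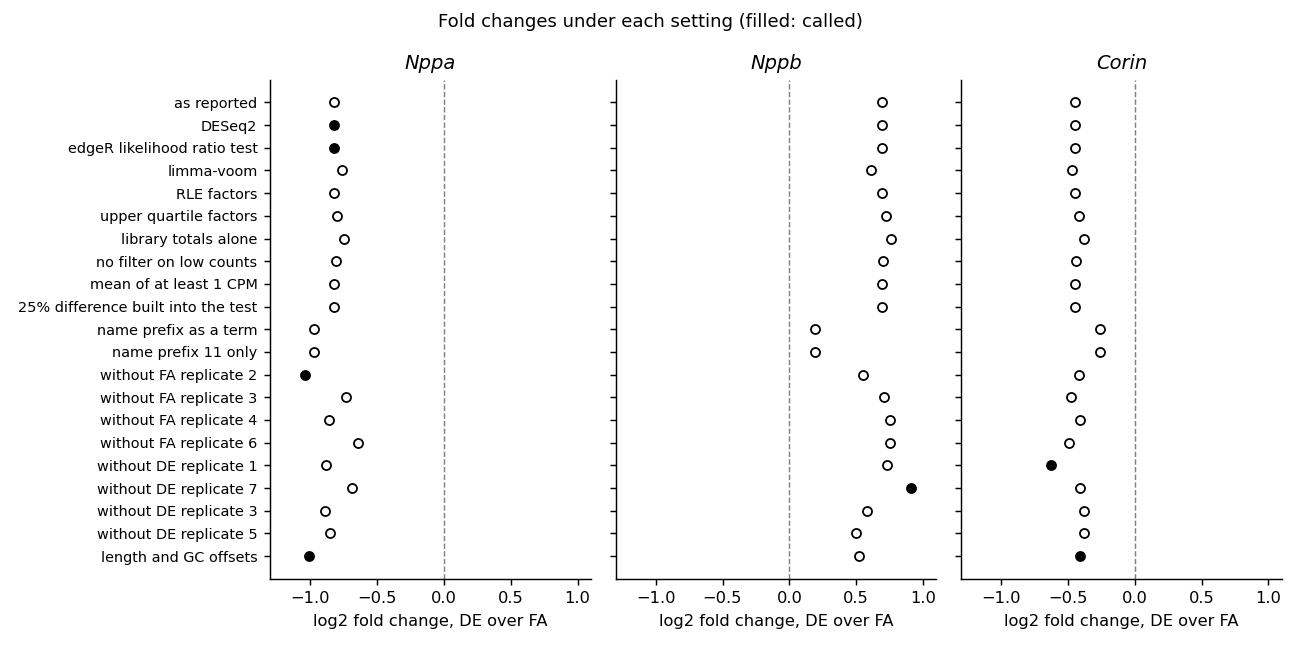
Log2 fold change of DE over FA for Nppa, Nppb and Corin as reported and under the 20 alternatives, with filled points where the gene was called. Nppa stays between -1.04 and -0.64, Nppb between 0.19 and 0.91 and Corin between -0.63 and -0.26, so that the signs hold. The gene stayed uncalled in 16 of the 20 alternatives for Nppa, 19 for Nppb and 18 for Corin.

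Compared per kilobase of exons, Nppa and Nppb stood far above the rest of the system. In FA the mean level was 814 ± 300 CPM per kilobase for Nppa and 286 ± 59.2 for Nppb (SD, n = 4 each), and the lowest Nppa library (413) was above the highest Nppb library (327). In DE the level was 460 ± 93 CPM per kilobase for Nppa and 462 ± 178 for Nppb, and the ranges of the genes overlapped. Next came the proteases, with Furin at 36.6 ± 7.8 and Corin at 35.6 ± 3.18 CPM per kilobase in FA and at 35.9 ± 1.59 and 26.1 ± 6.33 in DE, overlapping each other in both groups. The receptors followed, with Npr2 at 10.1 ± 1.28, Npr1 at 9.45 ± 0.912 and Npr3 at 7.67 ± 0.978 CPM per kilobase in FA. In DE, Npr1 was at 10.1 ± 1.71, Npr2 at 8.95 ± 0.655 and Npr3 at 8.68 ± 1.5 CPM per kilobase. The ranges of neighbouring receptors over the libraries overlapped in both groups. Nppc was last, at 0.19 CPM per kilobase in FA and 0.139 in DE.

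Of the tested members, Nppa and Nppb also varied most among libraries of the same group. The SD of log2 CPM within groups was 0.50 for Nppa and 0.52 for Nppb, larger than in 96.2% and 96.6% of the 13362 tested genes averaging 1 CPM or more, whose median was 0.20. The other 5 tested members lay between 0.16 for Npr2 and 0.25 for Furin. In size of the log2 difference between DE and FA, Nppa exceeded 97.5% of these genes, Nppb 94.9% and Corin 84.3%, against 7.99% for Furin. For Nppa and Nppb, then, a large mean difference stood against a large spread.

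The pattern of each peptide gene over the libraries was set against that of every other gene. As a measure of likeness, the log2 CPM of each gene was centred over the 8 libraries and the root-mean-square difference from the member was taken. Nppa itself deviated from its mean by 0.58, and its difference from Nppb was 0.76, at rank 11611 among 13361 genes. This measure takes in the difference between FA and DE, and within the groups the log2 ratio of the pair had an SD of 0.36 in FA and 0.39 in DE. The genes nearest to Nppa were 4833412C05Rik (0.27), Armc6 (0.28), Lmntd1 (0.29), Entrez gene 100503057 (0.30) and Acta2 (0.32), the last being smooth muscle actin, which fetal cardiomyocytes also transcribe. Acta2 was at 1151 CPM (FA) and 746 CPM (DE), with a log2 difference of -0.63 (edgeR adjusted p = 0.0562), and of the 5 only 4833412C05Rik was called, at -0.82 (edgeR adjusted p = 0.0199). Nearest to Nppb, which deviated from its mean by 0.55, were Fam71a (0.15), Entrez gene 620248 (0.19), Rnf225 (0.23), Gm8225 (0.24) and Mt3 (0.24), none of them called and all under 10 CPM on average. Of the genes around the pair on chromosome 4, Plod1, 2510039O18Rik and Clcn6 were not called either. Plod1 and 2510039O18Rik on the side of Nppb differed by 0.42 (edgeR adjusted p = 0.0826) and -0.08 on the log2 scale. Clcn6 on the side of Nppa differed by -0.25.

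Around the 8 genes, 48 further genes were read in 6 lists (peptide processing, other cGMP synthesis, cGMP effectors, activators, repressors and hypertrophy genes), and 4 of the 45 that could be tested were called, 2 lower and 2 higher in DE, where 5.80% of all tested genes were called (2.22% lower and 3.58% higher). The median log2 difference over these 45 was -0.09, beside 0.00 over all tested genes. Among 8 genes of peptide processing and degradation, 7 were tested, 1 rose and 1 fell. Pcsk6, a proprotein convertase related to furin that is known to activate corin, rose from an FA mean of 13.0 ± 2.92 CPM to a DE mean of 21.3 ± 0.896 CPM (± SD, n = 4), a log2 change of 0.71 (SE 0.15, edgeR adjusted p = 0.0247) with no overlap between the groups. Ide, the insulin-degrading enzyme, which also breaks down natriuretic peptides, fell from an FA mean of 253 ± 13.7 CPM to a DE mean of 184 ± 18.8 CPM (± SD, n = 4), a log2 change of -0.46 (SE 0.10, edgeR adjusted p = 0.0261), also without overlap. Pam, an enzyme that amidates peptides and is abundant in heart, was at 1507 CPM (FA) and 1343 CPM (DE) and was not called (log2 difference -0.17). Mme (neprilysin), which degrades the peptides, was at 2.89 and 2.75 CPM. Ostn, whose peptide competes for the clearance receptor, had 1 count in all 8 libraries.

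Nitric oxide and soluble guanylate cyclase are a separate source of cGMP beside the receptors, and 0 of the 4 tested genes of soluble guanylate cyclase and nitric oxide synthesis were called, where 5.80% of all tested genes were (median log2 difference 0.13). Nos3, the endothelial nitric oxide synthase, was at 48.9 CPM (FA) and 61.2 CPM (DE), and Gucy1b1, a guanylate cyclase subunit, at 31.4 and 36.2 CPM. Nos1 had 17 counts in all. Of the cGMP effectors, 0 of 10 tested genes were called (median 0.03), beside the same 5.80%. Those with the most CPM, not corrected for length, were Vasp, a substrate of cGMP-dependent kinase, at 79 CPM (FA) and 100 CPM (DE), and the phosphodiesterase gene Pde2a at 61 and 63.1 CPM. Prkg1, the cGMP-dependent kinase gene, was singled out after its values were seen. It was at 58.7 ± 14.1 CPM (SD, n = 4) in FA against 35.9 ± 9.33 CPM (SD, n = 4) in DE without overlap, a log2 difference of -0.72 (edgeR adjusted p = 0.0625). Prkg2 had 51 counts in all.

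**Figure D4:**
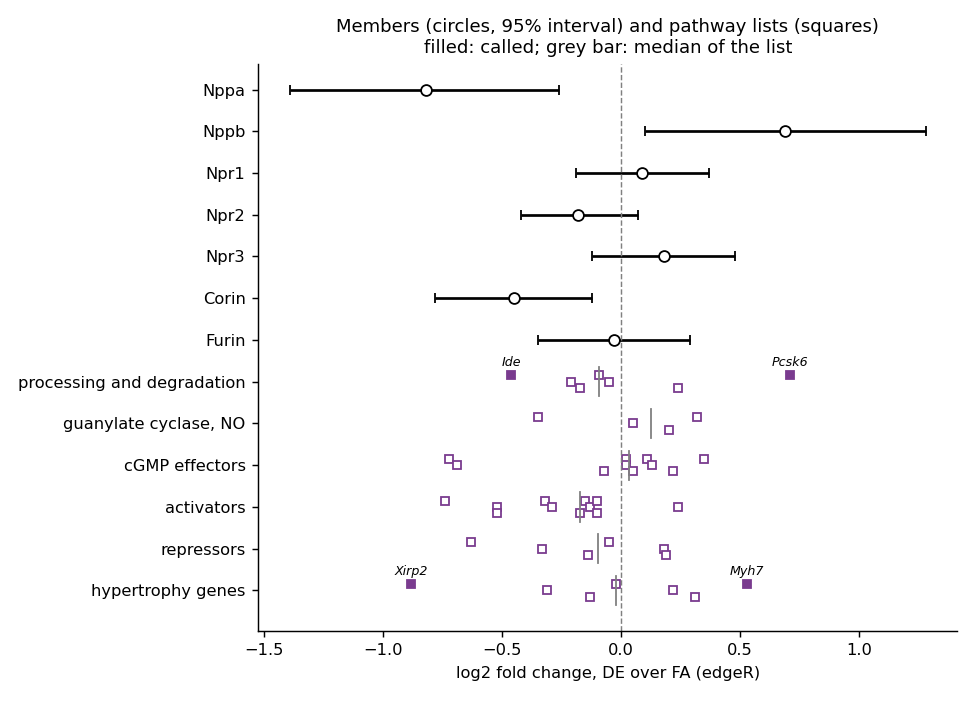
Log2 fold change of DE over FA for the 7 tested members (circles with 95% intervals) and for the tested genes of the 6 lists (squares, list median as a grey bar). Filled symbols are called genes. The intervals of Nppa, Nppb and Corin leave out 0 without a call after adjustment, and the 4 called genes are Pcsk6 (0.71) and Myh7 (0.53) on the higher side and Ide (-0.46) and Xirp2 (-0.88) on the lower.

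Upstream, 0 of 11 known activators of Nppa and Nppb transcription and 0 of 6 repressors were called, where 5.80% of all tested genes were, with medians of -0.17 and -0.10. The activators with the most CPM were Tbx20, at 437 CPM (FA) and 358 CPM (DE), and Tead1, at 324 and 289 CPM. Gata4, whose motif stands in both stretches shown above, was singled out after its values were seen. It was at 223 ± 20.4 CPM (SD, n = 4) in FA against 178 ± 12 CPM (SD, n = 4) in DE, a log2 difference of -0.32 without overlap (edgeR adjusted p = 0.0798). Of the repressors, Jarid2 was at 102 CPM (FA) and 81.7 CPM (DE) (edgeR adjusted p = 0.0926), and Hey2 at 77.9 and 88.4 CPM (log2 difference 0.18).

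The 7 hypertrophy genes usually read beside Nppa and Nppb were all tested, and 1 rose and 1 fell, with a median of -0.02. Of all tested genes, 5.80% were called (2.22% lower and 3.58% higher in DE). Myh7, the beta myosin heavy chain of the fetal ventricle, rose from an FA mean of 10022 ± 944 CPM to a DE mean of 14494 ± 852 CPM (± SD, n = 4), a log2 change of 0.53 (edgeR adjusted p = 0.0157). How reads shared with its near-identical neighbour Myh6 were counted is not stated, so its value is uncertain. Xirp2, a protein of the intercalated disc, fell from an FA mean of 49 ± 10.8 CPM to a DE mean of 26.5 ± 5.83 CPM (± SD, n = 4), a log2 change of -0.88 (edgeR adjusted p = 0.0247), with overlap between the groups. Ankrd1, a stretch-responsive gene, was at 1012 CPM (FA) and 1180 CPM (DE) and was not called. The 4 calls over the lists depended on the libraries. There was 1 gene called without FA replicate 2 or DE replicate 3, and 2 without FA replicate 4 or DE replicate 5. With prefix 11 alone 0 were called, and with the prefix as a term 1. Calls over all tested genes fell too, from 868 to 249 without FA replicate 2 and 268 without DE replicate 3. They were 237 without FA replicate 4, 526 without DE replicate 5, 260 with prefix 11 alone and 448 with the prefix term.

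Marker genes of the cells that the preparation could hold were read beside the members, and their calls stand beside 2.22% of all tested genes called lower and 3.58% called higher. Summed over 10 cardiomyocyte genes, FA libraries held 65367 to 70843 CPM and DE libraries 49445 to 57176 CPM, without overlap, and 2 of the 10 were called lower. They were Pln and Myh6, the latter at 23299 CPM (FA) and 14622 CPM (DE), a log2 change of -0.67 (edgeR adjusted p = 0.00314). Myh6 has a large part in the sum and is as uncertain as Myh7, and the median log2 difference of the 10 genes was -0.18. Tnnt2, the cardiac troponin T gene, was at 8234 CPM (FA) and 7895 CPM (DE). Summed over 9 fibroblast genes, FA libraries held 2045 to 3532 CPM and DE libraries 3736 to 6284 CPM, without overlap, and 3 of the 9 (Col1a1, Dcn and Dpt) were called higher. The median log2 difference of these 9 was 0.67, and Col3a1, the gene with the most CPM, was at 1014 CPM (FA) and 1619 CPM (DE). Endothelial and endocardial genes summed to 1356 to 1732 CPM in FA and 1501 to 2182 CPM in DE, with 0 of 11 called and Eng the gene with the most CPM. The part of these markers in the values of Nppa, Nppb and Corin was not tested.

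The atria transcribe Nppa strongly, so atrial genes are given by library. Their sum over 9 genes was 232, 267, 313 and 399 CPM in FA replicates 2, 3, 4 and 6 and 473, 423, 311 and 298 CPM in DE replicates 1, 3, 5 and 7. The groups overlapped, and the median log2 difference of the 9 genes was 0.33. Kcna5, at 0.66 on the log2 scale, was called higher in DE. Kcnj3 was at -0.69 and not called, and Myl4, with the most CPM, was at 150 CPM (FA) and 189 CPM (DE). The atrial genes Sln and Bmp10 were at 3.25 and 4.81 CPM in FA and at 4.08 and 5.1 CPM in DE. The ventricular gene Myl2 was at 7096 CPM (FA) and 6847 CPM (DE). The part of atrial cells in the values of Nppa was not tested.

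**Figure D5:**
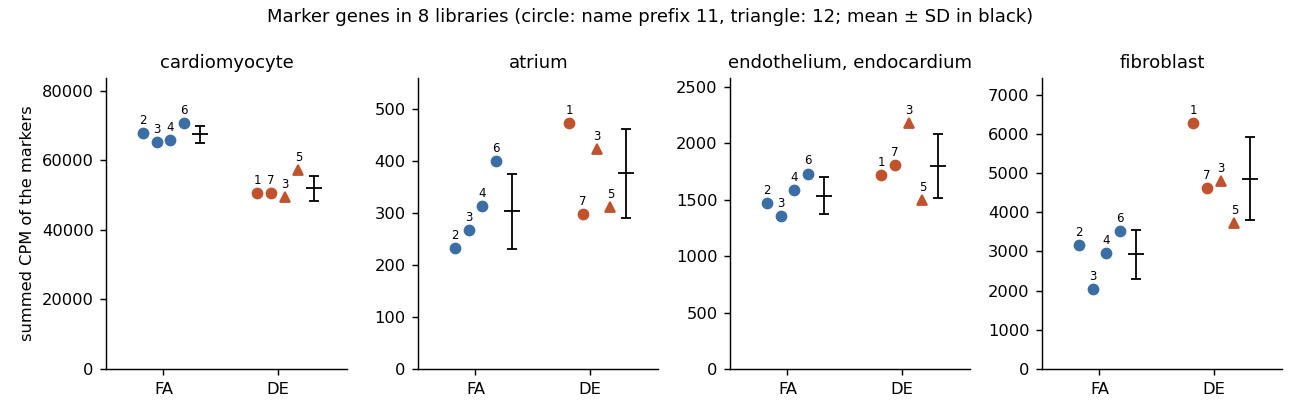
Summed CPM of marker genes of cardiomyocytes, atrium, endothelium and endocardium, and fibroblasts in each library, with the group mean ± SD (n = 4) in black, FA in blue and DE in orange. Cardiomyocyte sums (65367 to 70843 in FA, 49445 to 57176 in DE) and fibroblast sums (2045 to 3532 and 3736 to 6284) do not overlap, and atrial sums (232 to 399 and 298 to 473) do.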

How the data were processed

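RNA-seq was performed on NCMs of 8 neonates, 4 FA and 4 DE. Poly-A libraries were stranded and amplified with 13 PCR cycles. The authors aligned reads to mm10 with TopHat, marked duplicates with Picard without removing them, used GATK, and counted with featureCounts. Versions of TopHat, Picard and featureCounts are not given in the sources used here, nor are the strand setting and the handling of reads that map to several places. The values the authors deposited are unscaled counts for each Entrez gene. Whether the counting skipped marked duplicates is not stated. p-values measure the spread between libraries of single hearts.

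Entrez identifiers were matched to symbols on GRCm38.p6 (93.0% of 27179 genes). Genes with a CPM equivalent to at least 10 counts at the median library size in 4 or more libraries (filterByExpr) were scaled by TMM and fitted in R 4.3.3 with edgeR 4.0.16 (quasi-likelihood, glmQLFit and glmQLFTest, exposure as the only term), with Benjamini-Hochberg adjustment over 14966 genes. Exon lengths and overlaps come from GENCODE. Levels of the members were ordered only per kilobase of exons, and genes named for having the most CPM of a list are not corrected for length. Ratios within a library were taken from counts, with the mean per kilobase beside them and no test. The alternatives were DESeq2 1.42.0, the edgeR likelihood ratio test, limma-voom (limma 3.58.1), other scaling factors, other filters, the 25% difference built into the test, the name prefix, each library left out, and, added after seeing the data, offsets for length and GC content (spline fits of 5 degrees of freedom, for the 92.55% of genes with both known). The code was tested on simulated counts.

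The members, gene lists and markers were chosen with earlier results of these data known. The genes named are the 8 members, the called genes and the 2 genes with the most CPM of each list, the marker with the most CPM of each cell type, and the 5 genes most like Nppa and Nppb, each with a mean of at least 1 CPM. Tnnt2, Sln and Bmp10 are named as defining markers, and Mme, Ostn, Nos1, Prkg1, Prkg2, Gata4 and Kcnj3 were chosen after their values were seen. RefSeq promoters were found for all 8 members, and protein sequences were not used here. Of the genes around the pair, 1 is not reported here.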

Additional observations from a re-analysis of the deposited data

Results flagged for a closer look

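In sets of 4 libraries, a value was looked at again when its gap to the nearest other library, divided by the range of the set, was above Dixon's 95% critical value. Of 20 sets looked at (7 members and 3 ratios in each group), 2 passed, where chance gives about 1 in 20. Corin in DE replicate 1 was at 177 CPM, a gap of 0.875 of the range above the other DE libraries. Furin in FA replicate 6 was at 117 CPM, a gap of 0.903 of the range below the other FA libraries. DE replicate 1 also had the highest fibroblast sum (6284 CPM) and the highest atrial sum (473 CPM), and FA replicate 6 the highest Nppa (953 CPM).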

How the results depend on the processing

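Of 140 fold changes of the tested members under alternatives, 124 kept their direction and their side of the threshold, among them all of Npr2 and Npr3 (0.06 to 0.33 for Npr3). Nppa was called with DESeq2 and the edgeR likelihood ratio test (both -0.82) and with length and GC offsets (-1.01, edgeR adjusted p = 0.0097), and ran from -1.04 (without FA replicate 2) to -0.64 without single libraries. Nppb ran from 0.50 to 0.91 (without DE replicate 7) and Corin from -0.63 (without DE replicate 1) to -0.38, and Corin was called with the offsets (-0.41, edgeR adjusted p = 0.0351). With the prefix as a term, Nppb was at 0.19. Npr1 changed sign to -0.00 with prefix 11 alone and ran from -0.03 (without DE replicate 3) to 0.15. Furin changed sign to 0.00 with limma-voom, 0.04 with library totals, 0.01 with the prefix term and 0.00 with prefix 11 alone, and ran from -0.17 to 0.03 without single libraries. All of these are log2 differences. The 868 called genes became 1613 with DESeq2, 1603 with the likelihood ratio test, 114 with the 25% difference in the test, 448 with the prefix term, 260 with prefix 11 alone, 1539 with the offsets and 237 to 1168 without single libraries (249 without FA replicate 2, 433 without FA replicate 3, 237 without FA replicate 4, 268 without DE replicate 3, 526 without DE replicate 5). Called members numbered 1 with DESeq2 and the likelihood ratio test, 2 with the offsets and 0 to 1 without single libraries. Called genes of the 6 lists, 4 as reported, numbered 7 with DESeq2, 0 with the 25% difference in the test, 1 with the prefix term, 0 with prefix 11 alone, 7 with the offsets and 1 to 6 without single libraries. Over 9 alternatives each, the log2 ratio of Nppa to Nppb differed between groups by -1.52 to -1.06, that of Npr3 to Npr1 by -0.01 (without FA replicate 2 or DE replicate 1) to 0.30, and that of Corin to Nppa by 0.07 to 0.63. Causes of these shifts were not tested. Nppc had too few counts for the filter. No paired analysis was possible, since each dam was exposed to FA or DE alone and the labels give no pairs.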

Other observations

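Markers of other cells gave these sums, none of which separated the groups. Their calls stand beside 2.22% of all tested genes called lower and 3.58% called higher. Ventricular genes summed to 7017 to 9547 CPM in FA and 6633 to 9110 CPM in DE, with Lbh called lower. Trabecular and conduction genes, from the part of the ventricle that keeps Nppa transcription longest, summed to 144 to 166 CPM in FA and 147 to 172 CPM in DE, with 0 of 6 called and Id2 with the most CPM (50.1 CPM in FA, 61.8 CPM in DE). Smooth muscle and pericyte genes summed to 214 to 310 CPM in FA and 222 to 402 CPM in DE, with 0 of 8 called and Pdgfrb with the most CPM (58.7 CPM in FA, 67.2 CPM in DE). Epicardial genes summed to 97.8 to 127 CPM in FA and 92.2 to 131 CPM in DE, with 0 of 6 called and Msln with the most CPM (41.7 CPM in FA, 39 CPM in DE). Leukocyte genes summed to 12.5 to 19 CPM in FA and 15.7 to 26.8 CPM in DE, with Itgam called higher and Cd68 with the most CPM (8.15 CPM in FA, 12.7 CPM in DE). Erythroid genes summed to 288 to 716 CPM in FA and 445 to 748 CPM in DE, with Slc4a1 called higher and Hba-a1 with the most CPM (409 CPM in FA, 546 CPM in DE). Of the 5 erythroid markers, 4 were found in the table, Hbb-bt not being among them. No marker found in the table was at 0 in every library.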
